A study of Homo sapiens with 6 samples.

Results

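The genes described here are 35 rows of a read count table with 60252 rows. They were listed by name as genes of G2 and mitosis that lie outside the cyclin, kinesin, centromere, Aurora, condensin, anaphase-promoting complex and cytokinesis families. The list was chosen with earlier results of these data known. Counts of members set beside all features are therefore description and not independent of that choice. Of the 35, AL138789.1 is a noncoding feature opposite to DEPDC1, and GNB3, a G protein beta subunit, is opposite to CDCA3; the others are the mitotic genes themselves. A filter on low counts kept 34 of them among the 13510 features tested. DEPDC1B, which was left out by that filter, had 1 to 8 counts per library.

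RNA was measured in RPE-1, a telomerase-immortalised human cell line from retinal pigment epithelium. All released cells had first been held for 24 h in 2 mM thymidine, which starves replication of nucleotides at the start of S phase, and had then been washed 3 times. DMSO, the solvent, or AZ20 (2 µM), an inhibitor of the checkpoint kinase ATR, was added 1 h after the wash and stayed for 3 h (4h_DMSO and 4h_ATRi, late S phase) or 5 h (6h_DMSO and 6h_ATRi, G2). Arrested cells were collected from thymidine without release, cycling cells were asynchronous, and neither group was treated with a drug. The 6 conditions came from 3 independent experiments, A, B and C, according to the series' design text, with 3 libraries per condition except 6h_ATRi, which has 2 (A and B). The inhibitor conditions ask which transcripts ATR controls.

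Library totals ran from 1758747 to 2357561 counts, and the unit of a level is CPM, the counts of a gene after all libraries have been brought to the same size. Of the members, 15 had a median below 20 counts and 19 never reached 50 counts in any library. Experiment B stood apart: on the first principal component of all features tested, with 26.8% of the variance, its 6 libraries scored 26.5 to 57.0 and the 11 libraries of A and C -31.4 to -14.3. Each condition has a library from B, and counts of calls or median changes without B are given for most comparisons. The 11 markers of retinal pigment epithelium summed to 10030 to 15650 CPM per library, nearly all of it on BEST1 (mean 12690 CPM). BEST1, PMEL (319.5 CPM) and TYRP1 (4.13) each overlap a feature on the opposite strand, and SERPINF1 (19.7) and MITF (4.71) do not. The other 6 did not pass the filter on low counts, among them the visual cycle genes RPE65, with 2 counts over all 17 libraries, and RLBP1, with 7. KRT8 and VIM, markers of cultured epithelial and mesenchymal cells, averaged 3799 and 1093 CPM. Of the same list, FN1 averaged 1978, KRT18 280 and CDH2 43.6 CPM. All of these except FN1 overlap a feature on the opposite strand. Markers of other cell types summed to at most 8.36 CPM in any library, and CD3E, CDH5 and MYH6 were at 0.

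Genes of this group act between the end of DNA synthesis and the exit from mitosis. They build the spindle, attach chromosomes to it, and hold anaphase back until every chromosome is attached. Many are silent in early S phase and are switched on as cells enter G2, through the MuvB core with B-MYB and FOXM1, which reads the cell cycle homology region (CHR), and through the factor NF-Y, which reads the CCAAT box. ATR, which senses stalled replication forks, is also known to restrain CDK1 and FOXM1 while replication goes on.

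Promoter sequences were matched for 28 of the 35 members in a RefSeq table (GRCh38.p14), each from 250 bases before to 50 bases after the gene start. The CHR letters TTTGAA were found on either strand in 19 of the 28 (67.9%), against 15.4% of 27305 promoters of the same length. The variant TTTAAA was found in 7 (25.0% against 12.3%), and CCAAT in 18 (64.3% against 35.7%). Both a CHR and a CCAAT were found in 15 (53.6% against 9.49%). None of these letters was found in TACC3, MELK, CKAP2 and ARHGAP11A. A match describes letters and not binding. The 6 upstream sequences that follow are read 5′ to 3′ along the gene and end at the last base before its start, with capitals for the letters of all these motifs on either strand. CKAP2 (chr13:52455738-52455987, plus strand) is shown as the member with a promoter in the table that rose with the inhibitor at 4 h. MKI67 (chr10:128126424-128126673, minus strand), KPNA2 (chr17:68035485-68035734, plus strand) and ASPM (chr1:197146670-197146919, minus strand) are shown as genes that rose from arrest to G2, and CDCA3 (chr12:6851287-6851536, minus strand) and DEPDC1 (chr1:68497083-68497332, minus strand) are the genes beneath the opposite-strand rows. These 5 were chosen after the values had been seen.
CKAP2: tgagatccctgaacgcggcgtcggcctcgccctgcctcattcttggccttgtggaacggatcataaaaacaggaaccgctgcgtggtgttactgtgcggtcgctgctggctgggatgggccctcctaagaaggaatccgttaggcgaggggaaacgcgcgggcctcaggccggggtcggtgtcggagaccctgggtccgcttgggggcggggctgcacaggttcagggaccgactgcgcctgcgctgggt
MKI67: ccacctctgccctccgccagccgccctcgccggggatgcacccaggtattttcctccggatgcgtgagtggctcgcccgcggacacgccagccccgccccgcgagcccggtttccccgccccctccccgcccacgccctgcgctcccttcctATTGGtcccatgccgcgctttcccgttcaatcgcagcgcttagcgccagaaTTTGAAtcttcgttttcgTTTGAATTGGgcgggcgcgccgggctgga
KPNA2: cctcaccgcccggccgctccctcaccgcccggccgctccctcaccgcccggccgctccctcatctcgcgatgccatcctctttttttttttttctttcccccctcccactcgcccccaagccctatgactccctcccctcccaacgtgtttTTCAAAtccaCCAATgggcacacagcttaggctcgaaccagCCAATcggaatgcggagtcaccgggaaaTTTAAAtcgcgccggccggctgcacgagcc
ASPM: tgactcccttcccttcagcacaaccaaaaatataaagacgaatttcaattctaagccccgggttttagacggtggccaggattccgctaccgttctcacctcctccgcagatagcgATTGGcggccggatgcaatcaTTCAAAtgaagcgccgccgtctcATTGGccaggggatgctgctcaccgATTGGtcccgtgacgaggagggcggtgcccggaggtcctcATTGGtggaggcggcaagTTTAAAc
CDCA3: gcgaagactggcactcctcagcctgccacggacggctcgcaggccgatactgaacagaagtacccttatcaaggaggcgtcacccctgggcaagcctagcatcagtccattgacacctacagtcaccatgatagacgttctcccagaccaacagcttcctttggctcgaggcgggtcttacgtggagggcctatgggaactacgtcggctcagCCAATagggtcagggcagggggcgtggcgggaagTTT
DEPDC1: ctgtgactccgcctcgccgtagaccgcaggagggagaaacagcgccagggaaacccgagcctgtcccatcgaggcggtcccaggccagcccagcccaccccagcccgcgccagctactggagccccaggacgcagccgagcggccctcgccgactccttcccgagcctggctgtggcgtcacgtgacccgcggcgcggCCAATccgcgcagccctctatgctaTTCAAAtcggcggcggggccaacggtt
CKAP2 shows no capitals. The CHR of CDCA3 crosses the gene start, so that its first letters alone are printed. MKI67 carries a CHR at 47 and at 29 bases before the start, the latter running into the reverse of CCAAT, and KPNA2 carries the reverse of TTTGAA at 99 bases and the variant at 30 bases before it. ASPM holds 4 copies of the reversed CCAAT.

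Averaged over all 35 rows, the level was lowest in arrested cells and highest in 6h_ATRi. The mean log2(CPM + 0.5) per library was 3.22 ± 0.22 (SD, n = 3) in arrested cells, 3.52 ± 0.19 in 4h_DMSO, 3.65 ± 0.05 in cycling cells, 4.17 ± 0.12 in 6h_DMSO, 4.32 ± 0.07 in 4h_ATRi (n = 3 each) and 4.55 ± 0.14 in 6h_ATRi (n = 2). The 3 lower conditions overlapped with a neighbour, since arrested libraries reached 3.46 and 4h_DMSO libraries began at 3.31. All 4h_ATRi libraries (4.23 to 4.37) lay above all 4h_DMSO libraries (3.31 to 3.66), while against 6h_DMSO (4.06 to 4.29) 4h_ATRi A and B lay above all libraries and C lay within their range. Of the 34 members tested, 26 had their highest condition mean in 6h_ATRi, and 22 had their lowest in arrested cells. The shares of all features for these counts were not computed, and the 6h_ATRi mean rests on 2 libraries. In bulk RNA, more cells in G2 and more transcript per cell cannot be told apart.

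**Figure D1:**
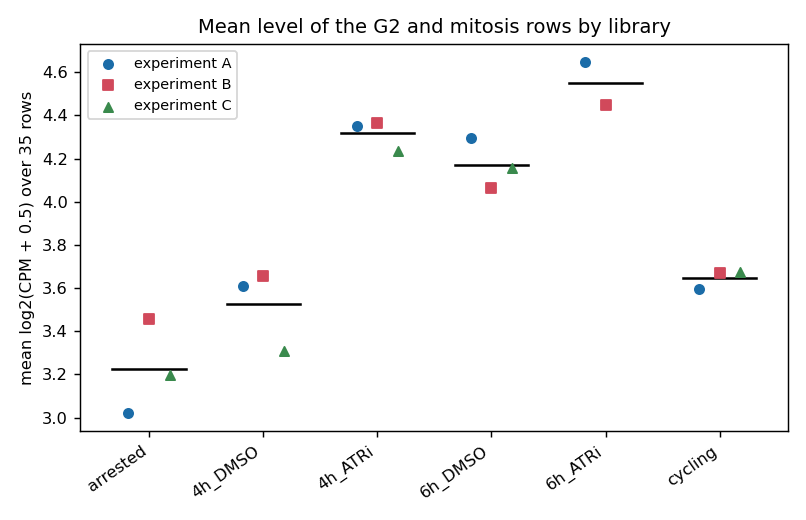
Mean log2(CPM + 0.5) over the 35 rows in each library, by condition, with a bar for the mean of the condition and colours for experiments A, B and C. The 4h_ATRi libraries sit between 4.23 and 4.37, above every 4h_DMSO library; A and B are also above the 6h_DMSO libraries (4.06 to 4.29), and C is within their range.

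**Figure D2:**
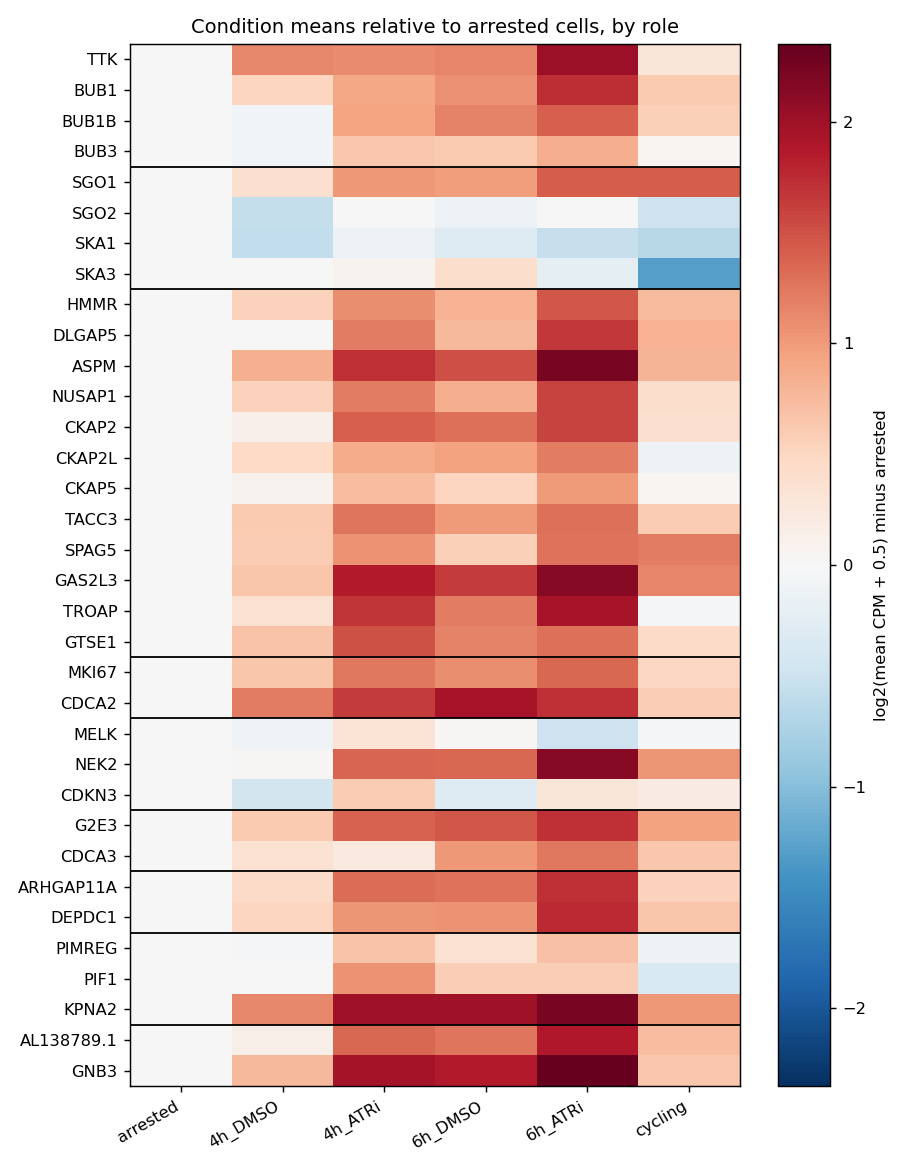
Condition means of each member, as log2(mean CPM + 0.5) minus the value in arrested cells, with members ordered by role. Most rows are highest under 6h_ATRi, a mean of 2 libraries, and SKA1, SGO2 and MELK are among those without a rise through the release.

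At 4 h of release, 3 members rose with the inhibitor and none fell. They were the spindle gene CKAP2, GNB3 and AL138789.1, and all 3 more than doubled in level. GNB3 and AL138789.1 share 549 and 336 exon bases with CDCA3 and DEPDC1 on the other strand. The gene from which their reads came is therefore uncertain. The other 31 tested members did not pass the test, although 32 of the 34 had a positive log2 fold change and the median was 0.71, against -0.01 over all features tested, of which 49.1% were positive. Of all features tested, 0.289% were called higher and 0.0222% lower. All 3 libraries of 4h_ATRi lay above all 3 of 4h_DMSO in 17 members, where 5.52% of features tested did so. Within experiments, 4h_ATRi was the higher in 30 members in A (47.5% of features), 29 in B (50%) and 31 in C (50%). In each of the 3 experiments 24 members were higher, for which the share of all features was not computed.

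CKAP2 codes for a microtubule-associated protein of the spindle. It had 12.9, 12.2 and 17.1 CPM in 4h_DMSO A, B and C and 39.3, 36.9 and 27.7 in 4h_ATRi. The inhibited libraries were all above the DMSO libraries, which themselves lay in the range of arrested cells (8.23, 17.1 and 13.1 CPM). The log2 fold change was 1.30 ± 0.28 (SE; edgeR adjusted p = 0.0329). The call ended when any of 6 libraries was left out: 4h_DMSO A (adjusted p = 0.176), B (0.143) or C (0.0756), 4h_ATRi A (0.183) or B (0.117), or cycling A (0.0506).

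GNB3 had 101.0, 73.3 and 73.1 CPM in 4h_DMSO and 194, 224 and 149 in 4h_ATRi. AL138789.1 had 180.2, 115 and 96.5 CPM in 4h_DMSO and 334, 319 and 252 in 4h_ATRi. For both rows the groups did not overlap, and 4h_DMSO A was the highest of its group. GNB3 rose by 1.20 ± 0.19 (edgeR adjusted p = 0.00132), a call that held without each library in turn, and AL138789.1 by 1.21 ± 0.20 (edgeR adjusted p = 0.00267), a call that ended without 4h_DMSO C (0.0603). The genes they overlap gave other values. CDCA3, which takes part in the destruction of the CDK1 inhibitor WEE1, had 64.4, 80.6 and 62.4 CPM in 4h_DMSO and 51.1, 89.0 and 50.8 in 4h_ATRi, a difference of -0.12 ± 0.22 on the log2 scale. DEPDC1, a DEP domain protein needed in mitosis, had 11.9, 8.30 and 4.39 CPM in 4h_DMSO and 13.1, 9.89 and 13.2 in 4h_ATRi, a difference of 0.56 ± 0.38. In both genes the libraries of the 2 conditions overlapped.

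Libraries of the same experiment deviated together, most strongly in B, and with the experiment as a block 11 members passed at 4 h, all higher, against 1.2% of features. Besides the 3 above they were MKI67 (0.58 ± 0.15, adjusted p = 0.138 without and 7.90e-06 with the block, edgeR), KPNA2 (0.87 ± 0.22, 0.117 and 9.56e-04), TROAP, ASPM, TACC3, ARHGAP11A, DLGAP5 and BUB1B. DESeq2, which gave no adjusted p for 7 of the 34, called 5 (0.607% of the features with one) and the fit without experiment B called 7 (0.503%). MKI67 codes for Ki-67, the protein that coats mitotic chromosomes. It had 315, 322 and 314 CPM in 4h_DMSO and 445, 522 and 459 in 4h_ATRi. The lowest inhibited library was thus well above the highest DMSO library. KPNA2, an importin alpha that carries proteins into the nucleus and restrains spindle factors, had 34.7, 29.8 and 31.2 CPM in 4h_DMSO and 60.1, 53.1 and 61.1 in 4h_ATRi, again without overlap. These values of MKI67 and KPNA2 are given in full by a choice made after they were seen, and KPNA2 has processed copies in the genome with which its reads could be shared.

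By role, the 12 spindle and microtubule genes were all positive at 4 h, with a median log2 fold change of 0.78, of which CKAP2 passed the test. TROAP, a protein of spindle poles, went from 9.14 ± 4.51 (SD, n = 3) to 23.8 ± 2.62 CPM. DLGAP5, which stabilises kinetochore fibres, went from 6.22 ± 1.07 to 15.1 ± 4.27 CPM. ASPM, a protein of spindle poles that sets spindle orientation, went from 23.6 ± 6.54 to 43.9 ± 2.30 CPM. These 3 passed with the block and not without it, as did TACC3, which builds microtubules together with CKAP5 and went from 48.6 ± 6.37 to 76.1 ± 4.19 CPM. CKAP5 had 25.7 ± 0.815 and 40.1 ± 1.45 CPM, without overlap of the libraries, and passed neither without the block (edgeR adjusted p = 0.456) nor with it (0.0882). The remaining members of this role, HMMR, NUSAP1, CKAP2L, SPAG5, GAS2L3 and GTSE1, had log2 fold changes from 0.41 (CKAP2L) to 1.29 (GAS2L3), and likewise passed neither with nor without the block.

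Of the 4 spindle checkpoint genes none passed without the block. BUB1B, which codes for the checkpoint protein BUBR1, had 8.18 ± 2.53 and 16.8 ± 3.38 CPM, and BUB3, its partner, had 18.6 ± 1.11 and 30.7 ± 2.85 (SD, n = 3 each). The kinase genes TTK (5.40 ± 1.02 and 5.35 ± 1.09 CPM) and BUB1 (6.69 ± 1.67 and 8.97 ± 0.952) had smaller differences, with log2 fold changes of -0.01 ± 0.50 and 0.42 ± 0.38. Whether members of this role differ from each other was not tested. The 4 genes for cohesion protection (SGO1, SGO2) and for kinetochore attachment to microtubules (SKA1, SKA3) ranged from 0.10 (SKA3) to 0.71 (SGO1), and none passed.

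Among kinases and phosphatases, NEK2, which parts the centrosomes, had 2.62 ± 0.773 and 7.43 ± 1.96 CPM (log2 1.49 ± 0.46, edgeR adjusted p = 0.346, and 0.0962 with the block). MELK and the CDK phosphatase CDKN3 had 0.42 ± 0.38 and 1.19 ± 0.83. CDCA2, which brings protein phosphatase 1 to chromatin, had 0.47 ± 0.41, and the ubiquitin ligase G2E3 0.87 ± 0.82. ARHGAP11A had 19.8 ± 2.16 and 36.1 ± 2.54 CPM, and a near-identical copy of part of this gene, ARHGAP11B, could share its reads. PIMREG and the helicase PIF1 had 0.71 ± 0.25 and 1.10 ± 0.45 without passing.

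**Figure D3:**
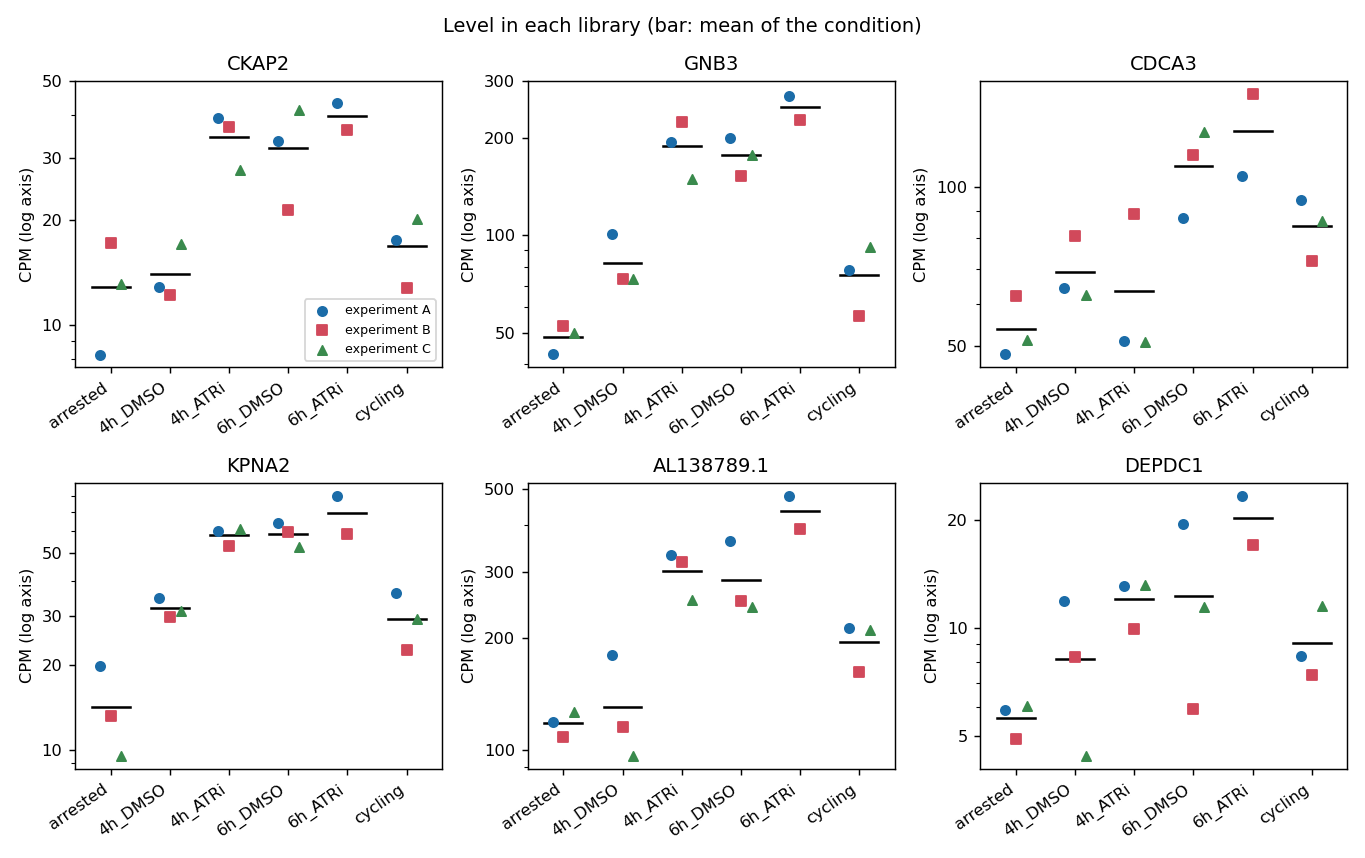
CPM (log axis) in each library of 6 rows given in full, by condition, with a bar for the mean of the condition and colours for experiments A, B and C. CKAP2, GNB3 and AL138789.1 show 4h_ATRi above 4h_DMSO without overlap and overlapping with 6h_DMSO, and in CDCA3 and DEPDC1 4h_ATRi overlaps with 4h_DMSO.

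At 6 h no member passed the test for the inhibitor in edgeR, where 0.0074% of all features were called higher, and no adjusted p was given by DESeq2 for 28 of the 34 members, so that it could call only the few others, of which it called none (0.486% of the features with an adjusted p). At an unadjusted p under 0.05, 6 members were higher, against 2.65% of features. The median log2 fold change was 0.40, with 30 of 34 positive, against 0.01 and 51.3% over all features tested. Both 6h_ATRi libraries lay above all 6h_DMSO libraries in 10 members, against 9.83% of features tested, and below them in SKA3 (9.04%). With the block AL138789.1 passed (0.61 ± 0.22, adjusted p = 0.954 without and 0.00860 with the block, edgeR; background 0.407%).

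AL138789.1 had 363, 251 and 242 CPM in 6h_DMSO A, B and C and 480 and 391 in 6h_ATRi A and B. GNB3 had 200.5, 153 and 177 CPM in 6h_DMSO and 270 and 228 in 6h_ATRi. In both rows the inhibited libraries were the higher ones, without overlap. MKI67 had 440.2, 436 and 413 CPM against 477 and 553, and CKAP2 had 33.7, 21.3 and 41.3 against 43.3 and 36.1, the latter with overlap. KPNA2 (63.7, 59.5 and 52.7 against 79.9 and 58.5), CDCA3 (87.3, 115 and 127 against 105 and 149.9) and DEPDC1 (19.4, 5.95 and 11.4 against 23.3 and 17.0) overlapped as well. DLGAP5 and ASPM had differences of 0.94 ± 0.37 and 0.71 ± 0.28, and TTK, with 5.47 ± 3.38 (n = 3) and 10.4 ± 2.62 CPM (SD, n = 2), had 0.90 ± 0.53.

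The difference between the responses at 6 h and at 4 h was tested directly, and no member passed in edgeR, with or without the block, or in DESeq2 (0% of features in the fit without the block and in DESeq2, and 0.0444% lower with it). Of the 34 members 27 had a smaller response at 6 h, with a median difference of -0.46, against 51.5% of all features on the positive side. At an unadjusted p under 0.05 (1.54% of features lower) CKAP2 (-0.99 ± 0.40, interval -1.82 to -0.16) and GNB3 (-0.71 ± 0.28, interval -1.28 to -0.13) had the smaller response at 6 h. The intervals are 95%, and one 6 h group has 2 libraries.

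**Figure D4:**
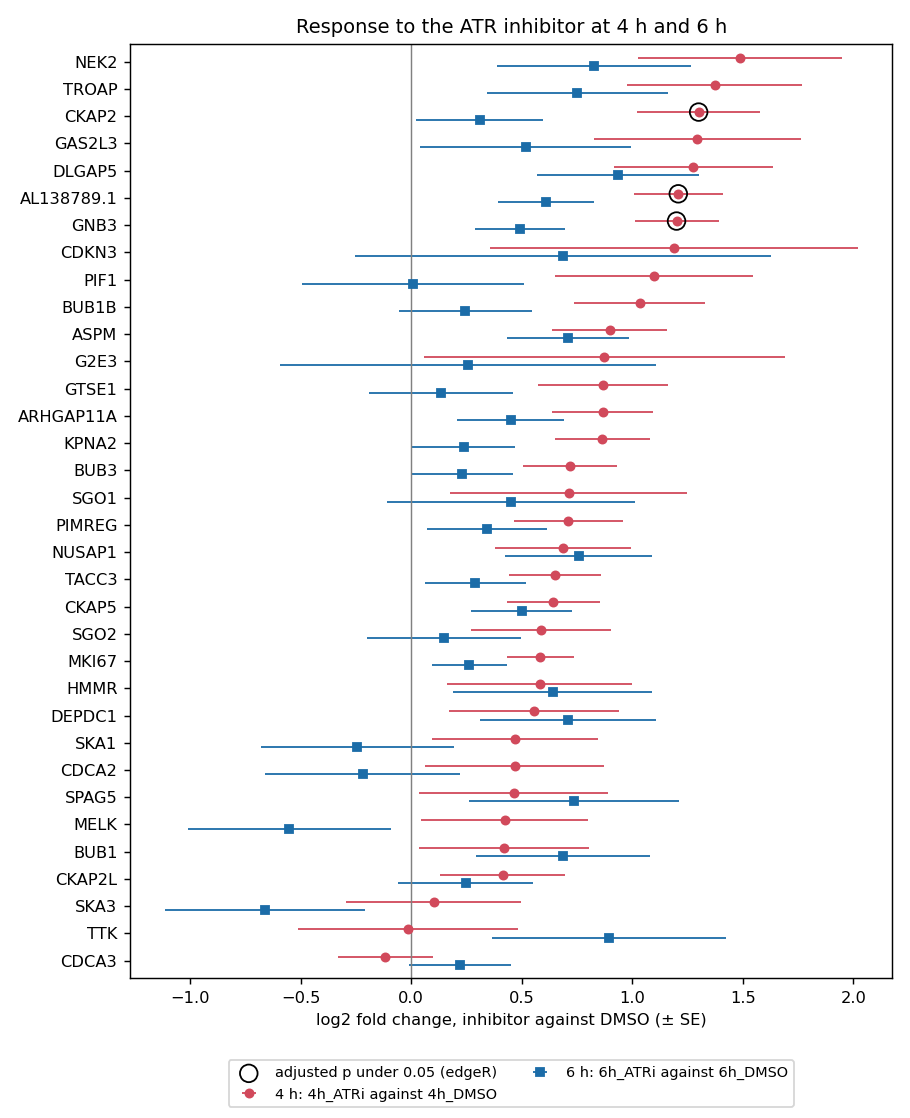
Log2 fold change (± SE) of each tested member, inhibitor against DMSO, at 4 h and at 6 h. At 4 h 32 of 34 members are above 0 with a median of 0.71, and at 6 h 30 are above 0 with a median of 0.40.

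Without inhibitor, GNB3 and AL138789.1 rose from 4 h to 6 h, by 1.10 ± 0.19 (edgeR adjusted p = 0.00663) and 1.13 ± 0.20 (0.00946). No member fell, 0.0666% of features were called higher and 0.0148% lower, and 33 of 34 members were positive with a median of 0.59 (-0.02 and 48% over all features tested). The libraries of 6h_DMSO lay above those of 4h_DMSO in 15 members, against 5.14% of features. With the block 8 members passed, adding BUB1B, CKAP2, MKI67, CDCA3, ARHGAP11A and KPNA2 (0.651% of features), and without experiment B 7 passed (0.348%). CDCA3 had 64.4 to 80.6 CPM at 4 h and 87.3 to 127 at 6 h (0.67 ± 0.21, edgeR adjusted p = 0.504, and 0.00339 with the block). The calls were sensitive to single libraries: GNB3 lost its call without 4h_DMSO C (0.124) or 6h_DMSO A (0.0899), and AL138789.1 without 4h_DMSO B (0.0545), 4h_DMSO C (0.186) or 6h_DMSO A (0.207).

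This comparison shares its 4h_DMSO libraries with the inhibitor comparison at 4 h, so the values are set side by side without a test between them. CKAP2 had 1.19 ± 0.28 from 4h_DMSO to 6h_DMSO and 1.30 ± 0.28 from 4h_DMSO to 4h_ATRi. KPNA2 had 0.88 ± 0.22 and 0.87 ± 0.22, MKI67 0.44 ± 0.15 and 0.58 ± 0.15, and CDCA3 0.67 ± 0.21 and -0.12 ± 0.22. For CDCA3 alone among these the signs differed.

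Inhibited cells at 4 h were then compared with uninhibited cells at 6 h. No member passed in edgeR or DESeq2 (0.0592% of features higher and 0.037% lower in edgeR, 0.25% and 0.162% of the features with an adjusted p in DESeq2, which gave none for 9 of the members), and the median was 0.13 with 24 of 34 positive, against 0.01 and 51.7% over all features. At an unadjusted p under 0.05 CDCA3 was lower (2.69% of features). The interval of the difference was -0.42 to 0.65 for CKAP2, -0.17 to 0.46 for MKI67 and -0.44 to 0.41 for KPNA2, so differences as large as these bounds could have gone undetected. CDCA3 was the exception with the block: it had 51.1, 89.0 and 50.8 CPM in 4h_ATRi and 87.3, 115 and 127 in 6h_DMSO (-0.78 ± 0.21, edgeR adjusted p = 0.245, and 2.01e-04 with the block, where 0.77% of features were lower). Only 4h_ATRi B reached the range of 6h_DMSO. Without 4h_ATRi B, the library that ran against the difference, it was -1.10 and passed without the block (edgeR adjusted p = 0.0195). The share of all features called in that fit is not given. With 1 library left out, the calls on members in this comparison ranged from 0 to 1.

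Against arrested cells, few members differed at 4 h of release and many at 6 h. At 4 h, 2 members had risen over arrested cells: MKI67 (0.65 ± 0.16, edgeR adjusted p = 0.0402) and KPNA2 (1.17 ± 0.25, edgeR adjusted p = 0.0196). None fell, 0.415% of features were called higher and 0.326% lower, and the median was 0.47 with 25 of 34 positive (0.00 and 50.2% over all features). MKI67 had 188, 212 and 204 CPM in arrested cells, all below the 314 to 322 CPM of 4h_DMSO. KPNA2 had 19.99, 13.2 and 9.56 CPM in arrested cells, all below the 29.8 to 34.7 CPM of 4h_DMSO. The block gave 5 calls (2.25% of features), adding GNB3, ASPM and TACC3. MKI67 lost its call without arrested A (adjusted p = 0.209) or C (0.175), 4h_DMSO A (0.0698), B (0.0826) or C (0.164), 4h_ATRi C (0.0556), 6h_DMSO A (0.0528) or cycling A (0.0594). KPNA2 lost its call without arrested B (0.0537), arrested C (0.178), 4h_DMSO A (0.0631) or 4h_DMSO C (0.0745).

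At 6 h, 12 members had risen over arrested cells, none had fallen and 22 did not pass, where 1.27% of features were called higher and 1.06% lower. The median was 1.11 with 31 of 34 positive (-0.01 and 48.9% over all features), and the libraries did not overlap in 22 members (8.56% of features). With the block 16 members passed, all higher (3.77% of features), adding CKAP2L, GAS2L3, TROAP and NEK2. Without experiment B 16 passed as well (3.18%), adding GAS2L3, TROAP, NEK2 and DEPDC1. KPNA2 (2.05 ± 0.24, edgeR adjusted p = 5.25e-06), GNB3 (1.87 ± 0.20, 1.15e-06) and MKI67 (1.09 ± 0.16, 1.04e-04) had the smallest adjusted p. CDCA2 rose from 2.47 ± 0.491 to 10.9 ± 5.67 CPM (2.11 ± 0.46), with 17.4 CPM in 6h_DMSO C and 6.94 to 8.31 in the other libraries. The spindle genes ASPM (12.9 ± 2.66 to 37.9 ± 11.2 CPM), CKAP2 (12.8 ± 4.46 to 32.1 ± 10.1), TACC3 (31.7 ± 6.71 to 64.1 ± 1.84) and GTSE1 (5.59 ± 1.44 to 13.1 ± 1.98), a regulator of microtubules and of p53, rose as well. The checkpoint gene BUB1B (8.59 ± 1.33 to 19.97 ± 1.90 CPM), ARHGAP11A (14.3 ± 1.58 to 35.5 ± 8.52), CDCA3 (53.9 ± 7.35 to 109.8 ± 20.4) and AL138789.1 (118 ± 9.07 to 285 ± 67.2) completed the calls (SD, n = 3 each).

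Of these 12 calls, 6 held without each library in turn: KPNA2, GNB3, MKI67, AL138789.1, ASPM and ARHGAP11A. Without arrested C the other 6 were lost (adjusted p from 0.0528 for TACC3 to 0.227 for GTSE1), which left 6 calls. Without 6h_DMSO C 7 were left, with BUB1B (0.0741), CKAP2 (0.0923), CDCA2 (0.119), CDCA3 (0.0624) and GTSE1 (0.119) lost. Without arrested A the calls of BUB1B (0.0668), CKAP2 (0.0899), CDCA3 (0.0624) and GTSE1 (0.111) ended, without 6h_DMSO A that of GTSE1 (0.150) and without 6h_DMSO B that of BUB1B (0.0728). The share of all features called in the fits without a library is not given. GTSE1 also missed in DESeq2 (0.0563). SGO2, SKA1 and CDKN3 had values below 0 (-0.14 ± 0.31, -0.33 ± 0.37 and -0.40 ± 0.86), and MELK had 0.02 ± 0.39. SKA1 had 10 to 31 counts per library, so that its interval (-1.09 to 0.44) leaves room for a change of either sign.

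Arrested cells were also compared with cycling cells. KPNA2 was lower in arrested cells (-1.05 ± 0.25, edgeR adjusted p = 0.0302), with 19.99, 13.2 and 9.56 CPM against 36.0, 22.6 and 29.2, and was the single call, where 0.429% of features were lower and 0.6% higher. The groups did not overlap, though arrested A and cycling B were close. The call ended without arrested B (0.129), arrested C (0.232), cycling A (0.226) or cycling C (0.0939). The median over the members was -0.57, with 26 of 34 negative, against -0.01 and 48.6% positive over all features. With the block 7 members were lower (2.83% of features): ASPM, TACC3, MKI67, CDCA3, KPNA2, AL138789.1 and GNB3. MKI67 had 188, 212 and 204 CPM against 278, 343 and 227 in cycling cells. SKA3 went the other way, with 6.41 ± 1.45 CPM in arrested and 2.33 ± 0.339 in cycling cells (SD, n = 3 each; 1.44 ± 0.45, edgeR adjusted p = 0.172).

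For 11 of the mitotic genes another feature has an exon on the opposite strand that overlaps one of theirs, and 22 have none. The libraries were made with a kit that marks strand, but the strand setting of the counting is not given in the sources used here. Reads of overlapping genes are therefore uncertain as to the gene. For the 22 genes without such a feature, the strand of the counted reads is uncertain too. In 7 of the 11 pairs the opposite feature held more counts than the mitotic gene, with a median ratio of 6.27. Per kilobase of exon it was higher in 9 of 11, with a median ratio of 5.92. AL138789.1 had 233 CPM over all libraries and DEPDC1 10.7, a ratio of 21.9 in counts and 134 per kilobase, and AL138789.1 was the higher in 17 of 17 libraries. GNB3 had 130 CPM and CDCA3 82.2, a ratio of 1.59 in counts and 2.61 per kilobase, with GNB3 the higher in 11 of 17 libraries. SPAG5-AS1 had 631 CPM against 8.39 on SPAG5, SGO1-AS1 166 against 4.52 on SGO1, HMMR-AS1 133 against 8.15 on HMMR, and NT5DC4 266 against 19.0 on CKAP2L, each the higher in 17 of 17 libraries. How the strand setting bears on these ratios, or on the levels of the 22 other genes, was not tested.

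Counts on several opposite features differed between conditions, and from which of the overlapping genes these reads came was not tested. AC125611.4, opposite to the spindle gene TROAP, had 90.9 CPM against 14.6 on TROAP. It rose with the inhibitor at 4 h (0.87 ± 0.16, edgeR adjusted p = 0.0104), a call that ended without 4h_DMSO C (0.134), 4h_ATRi A (0.0639) or 4h_ATRi B (0.0769). TROAP had 1.37 ± 0.40 (edgeR adjusted p = 0.269, and 6.88e-04 with the block) in this comparison. AC125611.4 rose from arrest to 4 h (0.80 ± 0.18, 0.0246) and to 6 h (1.23 ± 0.17, 9.80e-05), and was lower in arrested than in cycling cells (-1.15 ± 0.17, 3.45e-04). Of these 3 calls, that from arrest to 4 h ended without arrested A (0.0895), B (0.0794) or C (0.0859), 4h_DMSO A (0.0959) or 4h_DMSO C (0.0509). From arrest to 6 h SGO1-AS1 (0.89), HMMR-AS1 (0.91) and PITPNM3 (1.10), opposite to PIMREG, rose too, while SGO1, HMMR and PIMREG had 1.15 ± 0.57, 0.88 ± 0.45 and 0.37 ± 0.25 and did not pass. The call of PITPNM3 ended without any one of the arrested or 6h_DMSO libraries: arrested A (0.120), B (0.0805) or C (0.144), 6h_DMSO A (0.1195), B (0.0795) or C (0.0923). SPAG5-AS1 had 0.06 ± 0.16 at 4 h with inhibitor and SPAG5 0.46 ± 0.43, neither of which passed. AC123768.3, which shares 15 bases with ARHGAP11A, fell from arrest to 6 h (-1.46 ± 0.35, edgeR adjusted p = 0.0215) where ARHGAP11A rose. That fall lost its call without arrested A (0.0637) or C (0.167), or without 6h_DMSO B (0.134) or C (0.0658).

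**Figure D5:**
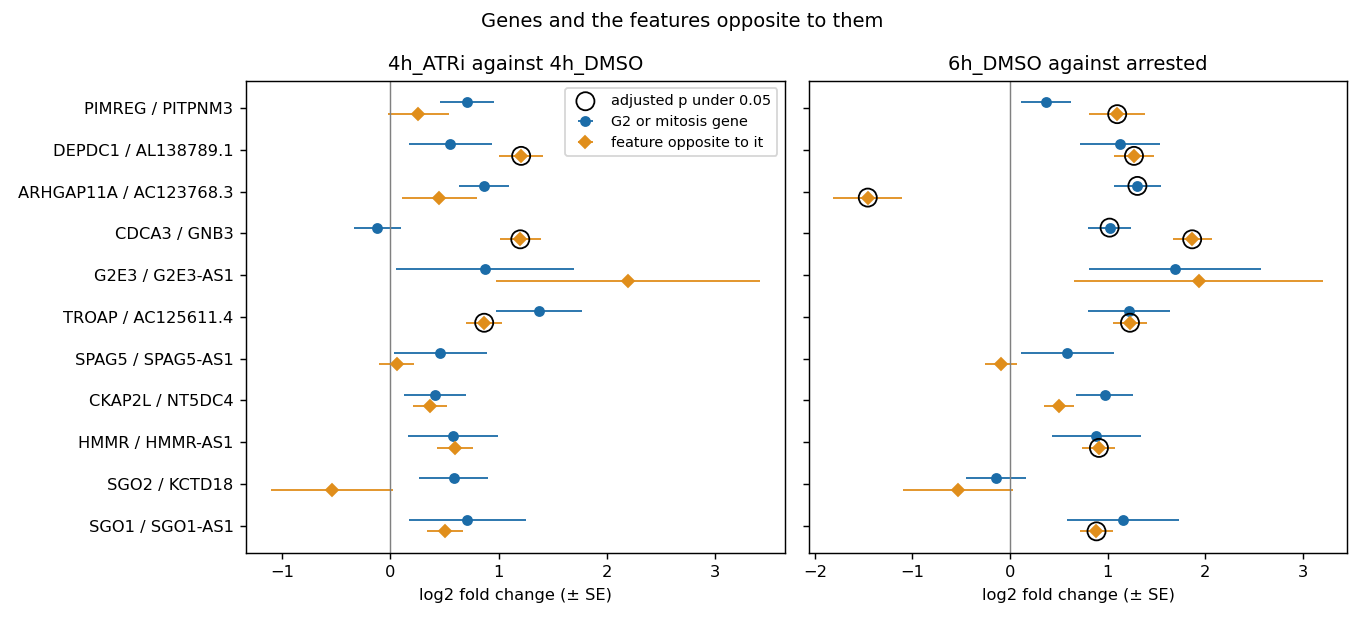
Log2 fold change (± SE) of 11 mitotic genes and of the feature opposite to each, for 4h_ATRi against 4h_DMSO and for 6h_DMSO against arrested cells, with rings for an adjusted p under 0.05. GNB3, AL138789.1 and AC125611.4 are ringed at 4 h with inhibitor, and the genes they overlap, CDCA3, DEPDC1 and TROAP, are not.

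Beside this group stood 68 other G2 and mitosis genes (cyclins, kinesins, kinetochore, condensin, anaphase and cytokinesis genes), of which 65 were tested. At 4 h with inhibitor 13 rose (0.289% of features), none fell and 52 did not pass, with a median of 0.71. With the block 22 rose (1.2%). At 6 h none passed, and 5 did with the block (0.407%). From 4 h to 6 h without inhibitor 1 rose (0.0666%), and 9 did with the block (0.651%). From arrest to 4 h 4 rose (0.415%) and none fell, and from arrest to 6 h 23 rose (1.27%) and 1 fell (1.06%). In arrested against cycling cells 8 were lower (0.429%) and none higher. Of 24 S phase genes, 22 were tested. None passed in either inhibitor comparison, and 2 were lower at 6 h than in arrested cells (1.06% of features). With the inhibitor 17 of the 22 were negative at 4 h (median -0.34) and 16 at 6 h (median -0.18). From arrest to 6 h 21 were negative (median -0.85). Over all features tested, the medians were -0.01, 0.01 and -0.01, with 49.1%, 51.3% and 48.9% positive.

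In the authors' deposited table, whose log2 fold changes are given without error, 5 of the 35 members had an adjusted p-value under 0.05 at 4 h. Of the features with an adjusted p-value there, 0.767% were higher in the authors' deposited table, and 15 of the members had none. The 5 were, in the authors' deposited table, CKAP2 (1.06), MKI67 (0.57), KPNA2 (0.78), AL138789.1 (1.10) and GNB3 (1.11), all higher with the inhibitor. The authors' deposited table had no such member at 6 h, where 24 of the 35 had no adjusted p-value (0.334% of features higher). From 4 h to 6 h with DMSO, the authors' deposited table counted 4 members higher (0.624% of features), and 24 had no adjusted p-value. From arrest the authors' deposited table counted 3 higher at 4 h (1.76%) and 10 at 6 h (3.47%), with 18 members lacking an adjusted p-value in each. In arrested against cycling cells 2 members were lower in the authors' deposited table, MKI67 and KPNA2 (0.82%), and 8 had no adjusted p-value.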

How the data were processed

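The authors deposited read counts per gene, whole numbers that were not normalised, for 17 libraries. No 6h_ATRi library of experiment C was among them. TopHat, HTSeq, DESeq2 and the build GRCh37 are named in the submitters' processing notes, without versions. Libraries were made with a KAPA Stranded mRNA kit, per the labels' protocols, and neither the strand setting nor the annotation is given in the sources used here. The authors deposited a second table with log2 fold changes and with adjusted p-values, which were used only where named.

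Features were filtered with filterByExpr (min.count 10, min.total.count 15) and tested with the quasi-likelihood test of edgeR 4.0.16 (R 4.3.3; robust glmQLFit, TMM factors), fitted once to all libraries with 1 mean per condition. A call is a Benjamini-Hochberg adjusted p under 0.05 over all 13510 features. Log2 fold changes are given with their SE, and CPM use TMM-scaled library totals. The scripts were tested on simulated counts. The alternatives were DESeq2 1.42.0, median-ratio size factors, no filter, a replicate block, the fit without experiment B, without each library, and with only the conditions compared. Names, exon lengths and opposite-strand overlaps came from GENCODE (GRCh38), without coordinates.

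Libraries with the same letter deviated together from their condition means in all 20 pairs of libraries compared (r across genes 0.134 to 0.535). For B r was 0.395 to 0.535, and the highest r with another letter was negative. For A and C r was 0.134 to 0.316. For A, the highest r with another letter was larger in 4h_DMSO against arrested (0.259 beside 0.197) and in 6h_DMSO against arrested (0.226 beside 0.18). Whether A and C pair by letter apart from the offset of B was not tested. The design text gives independent experiments, and the letters were taken to pair the libraries. The block lowered the coefficient of variation between libraries from 0.23 to 0.119, with 9 in place of 11 residual degrees of freedom.

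The members, lists and comparisons were chosen with earlier results of these data known. Values in every library are given for members called in a comparison among released conditions and for both genes of the named opposite pairs. Other members are given by mean, SD or range. MKI67 and KPNA2 were added. The counts carry no molecular identifiers.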

Additional observations from a re-analysis of the deposited data

How the results depend on the processing

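Of 20 calls on members in the 8 comparisons, 20 remained with a replicate block, 20 with median-ratio size factors, 20 without experiment B, 19 with DESeq2, 18 with no filter on low counts and 14 with only the conditions compared in the fit. With the replicate block the calls numbered 11 for the inhibitor at 4 h (1.2% of features), 1 at 6 h (0.407%) and 8 from 4 h to 6 h with DMSO (0.651%). They numbered 1 for 4h_ATRi against 6h_DMSO (0.77%) and 7 for arrested against cycling cells (2.83%). From arrest they numbered 5 at 4 h (2.25%) and 16 at 6 h (3.77%). Removal of experiment B leaves 6h_ATRi with 1 library that is assumed to vary like the others. Without B the median log2 fold change of the members was 0.83 at 4 h, 0.78 from 4 h to 6 h and 0 for 4h_ATRi against 6h_DMSO. It was 0.47 from arrest to 4 h, 1.21 from arrest to 6 h and -0.66 for arrested against cycling cells. DESeq2 called 5 members at 4 h and 2 from 4 h to 6 h. From arrest it called 3 at 4 h and 11 at 6 h, and for arrested against cycling cells 1. It gave no adjusted p for 7 to 28 of the 34 members in the comparisons between conditions. Of all 13510 features, in the same order and direction, DESeq2 called 55, 25, 103, 211 and 70. It gave no adjusted p for 4453, 4977, 7858, 4715 and 4715 of them. With only the conditions compared there was 1 call from 4 h to 6 h and 0 from arrest to 4 h, and with no filter 2 for arrested against cycling cells. With 1 library left out, the calls ranged from 1 to 3 for the inhibitor at 4 h, 0 to 0 at 6 h, 0 to 0 for the difference of responses, 0 to 3 from 4 h to 6 h, 0 to 1 for 4h_ATRi against 6h_DMSO, 0 to 2 from arrest to 4 h, 6 to 13 from arrest to 6 h and 0 to 2 for arrested against cycling cells. The mean level with a pseudocount of 2 was 3.55 in arrested cells, 3.81 in 4h_DMSO, 4.48 in 4h_ATRi, 4.36 in 6h_DMSO, 4.70 in 6h_ATRi and 3.89 in cycling cells, in the same order as before. No called value changed sign. Of the 19 members that never reached 50 counts, BUB1B, GTSE1 and CDCA2 were called, each from arrest to 6 h. How depth bears on the others was not tested, and the causes of the changes in calls were not tested.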
